A study of Homo sapiens with 9 samples.

Results

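The genes described here are 6 transcription factors that set and hold T cell identity, TCF7, LEF1, BCL11B, TOX, RUNX3 and IKZF1. They were chosen by name and are listed as ENSG00000081059.20 (TCF7), ENSG00000138795.10 (LEF1), ENSG00000127152.18 (BCL11B), ENSG00000198846.6 (TOX), ENSG00000020633.19 (RUNX3) and ENSG00000185811.19 (IKZF1). These are 6 of the 19569 gene IDs in a table of ribosome footprint counts. All 6 IDs had 1 entry each, and all 6 passed the filter on low counts. The rule that names them uses no measured value, but the 6 genes were chosen with earlier results of these data known. The cells were Jurkat clone E6-1, an established human line of leukaemic T lymphoblasts, in 3 groups of 3 biological replicates: resting (no activation, labelled control and 0 h), 5 h after activation and 12 h after activation. Activated cells were kept on plates coated with anti-CD3 antibody at 10 µg/mL, with anti-CD28 antibody at 5 µg/mL in the medium, so that the T cell receptor complex and its main costimulatory receptor were engaged together. Jurkat cells are leukaemic and divide without stimulation, so "resting" means unstimulated, and all libraries come from 1 line. No unstimulated group was sampled at 5 h or 12 h, so activation and time in culture cannot be told apart.

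These factors act on T lineage genes at successive steps. TCF7 (which encodes TCF-1) and LEF1 carry an HMG box, bind the same DNA letters, and work with beta-catenin as activators or with Groucho/TLE proteins as repressors; they start the T lineage programme in the thymus and are known to be high in naive and memory T cells and low in effector cells. BCL11B is the zinc finger factor of T lineage commitment, TOX is an HMG box factor of CD4 lineage development that is also known for rising under lasting antigen stimulation, RUNX3 is the Runt domain factor of the CD8 and cytotoxic programme that represses CD4, and IKZF1 encodes Ikaros, a zinc finger factor that binds with the NuRD chromatin complex and restrains T cell activation. Ribosome profiling counts the mRNA fragments covered by translating ribosomes, so a gene's footprint level joins the amount of its mRNA with how heavily that mRNA is translated. The values are called footprints because the labels name them so, although the library protocol in the labels is one for mRNA, starting with total RNA. In a bulk sample, fewer cells carrying footprints and fewer footprints per cell cannot be told apart.

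Start-site windows are shown for 4 of the genes, the pair that shares a DNA motif (TCF7 and LEF1) and the genes with the largest fall (BCL11B) and rise (RUNX3) among the 6 at 5 h. Each window runs from 250 bases before to 50 bases after an annotated start in RefSeq on GRCh38.p14, written 5′ to 3′ on the gene's strand. The windows are chr5:134123368-134123667 (+ strand, the downstream of 2 TCF7 starts), chr4:108166252-108166551 (- strand, LEF1), chr14:99272148-99272447 (- strand, BCL11B) and chr1:24964961-24965260 (- strand, the upstream of 2 RUNX3 starts). Capitals mark the letters TGTGGT, the core that Runt domain factors bind, and CTTTGT or CTTTGA, the core that TCF-1 and LEF1 bind, on either strand.
TCF7: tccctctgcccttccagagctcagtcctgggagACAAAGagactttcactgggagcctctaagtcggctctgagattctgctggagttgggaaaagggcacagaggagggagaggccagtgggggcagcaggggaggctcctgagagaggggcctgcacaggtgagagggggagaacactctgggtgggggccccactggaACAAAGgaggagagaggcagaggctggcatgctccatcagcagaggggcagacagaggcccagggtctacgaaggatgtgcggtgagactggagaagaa
LEF1: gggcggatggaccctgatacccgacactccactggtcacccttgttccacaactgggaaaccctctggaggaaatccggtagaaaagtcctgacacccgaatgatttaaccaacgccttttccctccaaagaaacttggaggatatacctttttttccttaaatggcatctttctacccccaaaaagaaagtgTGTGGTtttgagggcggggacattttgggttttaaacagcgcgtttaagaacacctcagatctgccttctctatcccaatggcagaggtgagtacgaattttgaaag
BCL11B: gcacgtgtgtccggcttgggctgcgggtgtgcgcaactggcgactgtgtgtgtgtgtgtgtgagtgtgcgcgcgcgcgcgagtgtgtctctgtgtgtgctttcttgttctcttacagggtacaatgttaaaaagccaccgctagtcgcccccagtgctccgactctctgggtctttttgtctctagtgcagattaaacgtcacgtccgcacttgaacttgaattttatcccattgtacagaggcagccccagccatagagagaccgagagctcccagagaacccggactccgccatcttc
RUNX3: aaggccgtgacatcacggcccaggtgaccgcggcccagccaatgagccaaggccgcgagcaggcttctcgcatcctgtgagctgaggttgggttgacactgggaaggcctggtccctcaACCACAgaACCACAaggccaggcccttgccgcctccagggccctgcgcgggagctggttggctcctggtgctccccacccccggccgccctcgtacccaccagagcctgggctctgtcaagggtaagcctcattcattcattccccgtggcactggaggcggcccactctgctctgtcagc

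The upstream RUNX3 window held the RUNX letters at 2 places, at -131 to -126 and at -123 to -118 counted from the annotated start base as 0, both on the opposite strand as ACCACA. The downstream RUNX3 window held no RUNX or TCF/LEF letters. For RUNX3 and TCF7, with 2 starts each, the window printed is thus the one that held marked letters. The LEF1 window held TGTGGT at 1 place, -57 to -52, on the gene's own strand. The downstream TCF7 window held CTTTGT at 2 places, -217 to -212 and -49 to -44, both on the opposite strand as ACAAAG, and the upstream TCF7 window held no RUNX or TCF/LEF letters. The BCL11B window held neither. Across 9 windows of 5 of these genes, TGTGGT was also found in 1 of 3 IKZF1 windows and CTTTGT in another. These letters are common: TGTGGT occurred in 13.1%, CTTTGT in 16.1% and CTTTGA in 12.9% of all 35116 windows of the same length. TGGGAA, the core that Ikaros binds, was present in windows of TCF7, LEF1, RUNX3 and IKZF1 and in 24.0% of all windows; in the LEF1 window it overlapped CAACTG, a match to the E-box letters CANNTG. E-box letters occurred in 68.7% of all windows and in 8 of the 9 searched here, and the ETS letters CCGGAA in 17.2% of all windows and in the upstream TCF7 window. The AP-1 letters TGANTCA, in 7.71% of all windows, were not found in the 9. A match describes these letters only.

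The shallowest library was 12 h replicate 2 (4343515 counts) and the deepest 5 h replicate 3 (18506509). Levels below are in CPM, here each count relative to its library's total after TMM adjustment, which takes most genes as unchanged, so each rise or fall is relative to the scaled library. Tests are edgeR's quasi-likelihood test over all 13920 IDs that passed the low-count filter, with Benjamini-Hochberg adjustment over all of them, and calls were made at adjusted p below 0.05. Each log2 fold change is the first named group over the second, given with its standard error (SE). The counting is not stated to use strand, and RefSeq lists the antisense genes LEF1-AS1 and RUNX3-AS1, whose reads could not be told apart from those of LEF1 and RUNX3. Counts are per gene, so isoforms such as the short TCF-1 forms without the beta-catenin-binding part are summed. Levels are not compared between genes, except as parts of a sum of CPM, since coding lengths were not used here.

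The 6 factors did not move as a block. At 5 h, TCF7, LEF1 and BCL11B fell and TOX, RUNX3 and IKZF1 rose against resting cells. By 12 h, TCF7 and BCL11B were still lower than in resting cells, and TOX and RUNX3 were still higher. Under TMM scaling, LEF1 was then back near its resting level and IKZF1 had moved below its own. Both of these depended on the scaling. Of the 6, 6 were called at 5 h versus resting, where 34.5% of all tested IDs were called, with 3 higher (16.0% of all IDs) and 3 lower (18.4%). At 12 h versus resting 5 were called (35.1% of all IDs), 2 higher (15.8%) and 3 lower (19.3%). At 12 h versus 5 h 5 were called (25.1% of all IDs), 3 higher (11.6%) and 2 lower (13.5%). These shares are over IDs of all levels and were not matched to the levels of the 6. Among the 10372 IDs with at least 50 counts in 3 libraries, a larger share was called at 5 h versus resting (2304 higher and 2359 lower).

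**Figure D1:**
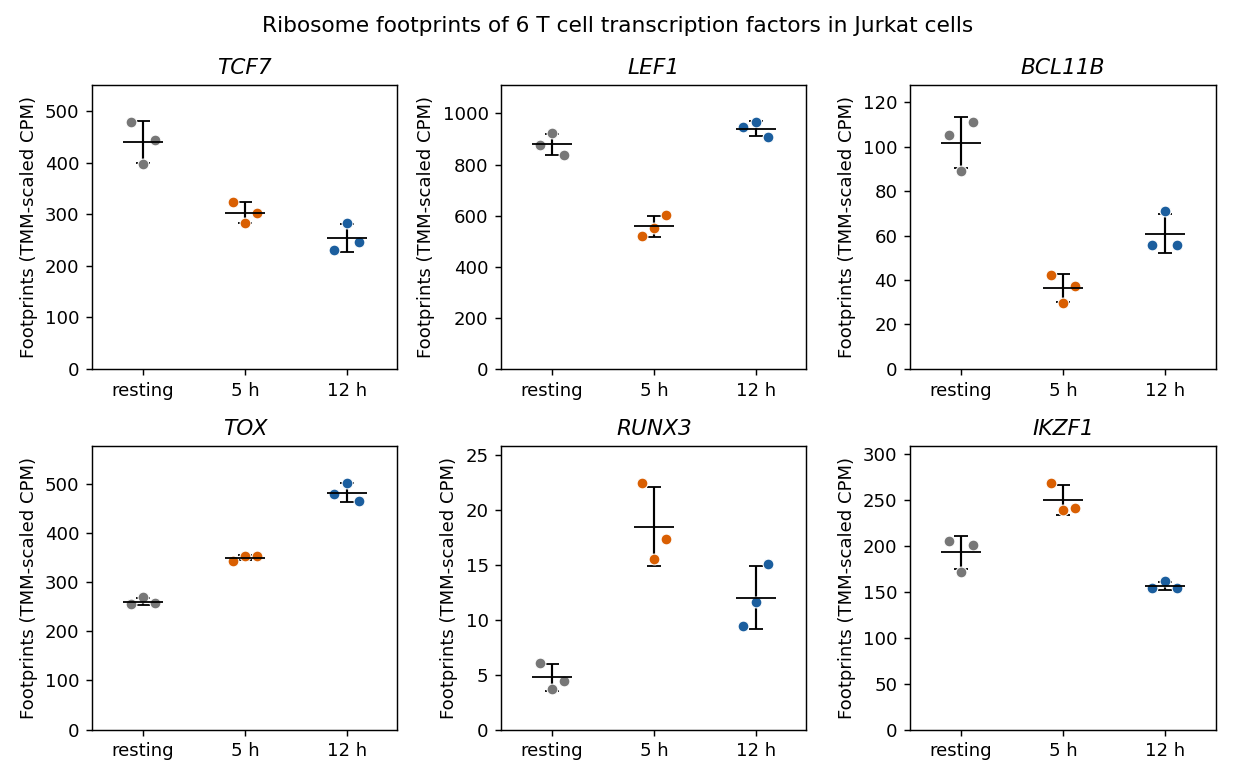
Footprints of each factor (vertical axis, TMM-scaled CPM from 0) in resting cells, at 5 h and at 12 h (horizontal axis); points are libraries, horizontal marks are means and bars are the SD over 3 replicates. BCL11B dipped to 36.25 CPM at 5 h, TOX climbed at both times, and IKZF1 was highest at 5 h and lowest at 12 h.

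TCF7 stood at 479, 397 and 445 CPM in the resting libraries, 323, 283 and 302 CPM at 5 h, and 231, 283 and 247 CPM at 12 h. Every activated library lay below every resting library, while the 5 h and 12 h libraries overlapped. TCF7 averaged 303 ± 20.2 CPM at 5 h and 440.5 ± 41.2 CPM in resting cells (SD, n = 3 each), a log2 fold change of -0.54 ± 0.09 (SE) with an adjusted p of 6.22e-05 by edgeR. At 12 h the mean was 254 ± 26.6 CPM (SD, n = 3), and the log2 fold change against resting cells was -0.80 ± 0.09 (SE), with an adjusted p of 3.92e-07 by edgeR. The further fall between the times was small: the log2 fold change at 12 h versus 5 h was -0.26 ± 0.09 (SE), with an adjusted p of 0.0454 by edgeR. That last call did not hold firmly. The adjusted p by edgeR was 0.0541 without resting replicate 3, 0.126 without 5 h replicate 1, 0.146 without 5 h replicate 3, 0.224 without 12 h replicate 1 and 0.146 without 12 h replicate 3, and other scalings of the libraries also ended the call.

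LEF1, the close relative of TCF7, took another course. Its resting libraries held 876, 922 and 838 CPM, its 5 h libraries 521.5, 550.0 and 602 CPM, and its 12 h libraries 947, 967 and 908 CPM. All 5 h libraries lay below all others, and the 12 h libraries overlapped the resting ones. That overlap holds under TMM scaling. Relative to unscaled library totals, all 12 h libraries lay above all resting ones. The lowest at 12 h was replicate 3 (6752 of 7001097 counts), and the highest at rest was replicate 2 (8393 of 10171929). The mean was 558 ± 41.0 CPM at 5 h and 879 ± 42.1 CPM in resting cells (SD, n = 3 each), 63.5% of the resting level in the fit, with a log2 fold change of -0.66 ± 0.07 (SE) and an adjusted p of 1.56e-07 by edgeR. At 12 h it was 940.4 ± 29.9 CPM (SD, n = 3), 1.68-fold the 5 h level in the fit, with a log2 fold change against 5 h of 0.75 ± 0.07 (SE) and an adjusted p of 3.86e-08 by edgeR. Against resting cells the 12 h log2 fold change was 0.10 ± 0.07 (SE), with an adjusted p of 0.319 by edgeR, which does not show that the levels were equal. With a stricter filter (50 or more counts in 3 libraries), which also changes the scaling, it was 0.18 with an adjusted p of 0.0286 by edgeR, so a small excess over resting cells was called there.

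The LEF1 to TCF7 ratio within each library is free of library scaling. It was 1.83, 2.32 and 1.88 in resting libraries, 1.61, 1.94 and 1.99 at 5 h and 4.09, 3.41 and 3.67 at 12 h. Its size depends on the coding lengths, so only its change is read: all 12 h ratios lay above all resting and all 5 h ratios, whereas the 5 h and resting ratios overlapped. On the log2 scale, with 0.5 CPM added to each level, the ratio averaged 1.89 ± 0.13 at 12 h and 1.00 ± 0.19 in resting cells (SD, n = 3 each), a difference of 0.89. The 12 h minus 5 h difference was 1.01, a 2.02-fold change, and the 5 h minus resting difference was -0.12. An exact permutation test (two-sided) gave p = 0.1 for both comparisons of 12 h libraries, which is the lowest possible with 3 against 3, and p = 0.6 for 5 h versus resting. Over the 45 tests of all 15 gene pairs in 3 comparisons, the adjusted values were 0.122, 0.122 and 0.643, so none of these passes a threshold of 0.05, and this design could not pass it.

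**Figure D2:**
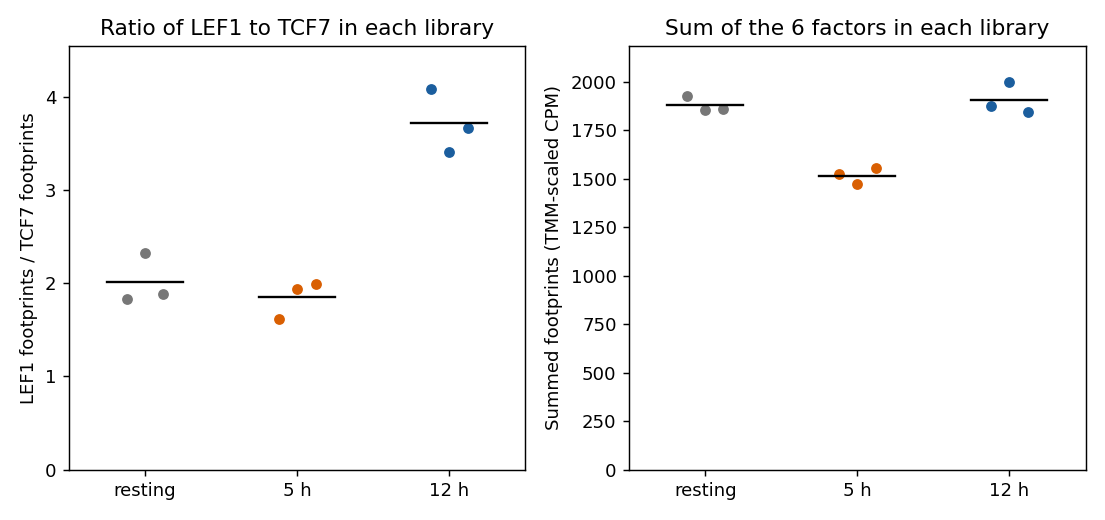
Left, LEF1 footprints divided by TCF7 footprints in each library (vertical axis from 0); right, the summed CPM of the 6 factors in each library; points are libraries and lines are group means, for resting cells, 5 h and 12 h. The 12 h ratios, 3.41 to 4.09, lie above all others, and the sums dip at 5 h to between 1470 and 1553 CPM.

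BCL11B, the commitment factor, fell further at 5 h than the other 5 genes. Its libraries held 105, 89.0 and 111 CPM in resting cells, 42.0, 29.5 and 37.2 CPM at 5 h, and 55.9, 70.9 and 55.8 CPM at 12 h. The 3 groups did not overlap with each other. The mean was 36.25 ± 6.35 CPM at 5 h and 102 ± 11.4 CPM in resting cells (SD, n = 3 each), 35.5% of the resting level in the fit. The log2 fold change was -1.49 ± 0.14 (SE), with an adjusted p of 8.57e-09 by edgeR, and 113 of the 13920 tested IDs had a more negative value. Of the 6 factors, BCL11B alone lay among the lowest 1% of all tested log2 fold changes at 5 h, at percentile 0.8. By 12 h its mean was 60.9 ± 8.71 CPM (SD, n = 3), and 37.6% of the difference in mean CPM between 5 h and resting cells had been undone. The log2 fold change was 0.74 ± 0.14 (SE) at 12 h versus 5 h, with an adjusted p of 0.000294 by edgeR. BCL11B was nonetheless still below resting cells at 12 h, by a log2 fold change of -0.75 ± 0.14 (SE) with an adjusted p of 0.000126 by edgeR.

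TOX rose at each step. It stood at 255, 269 and 257 CPM in resting libraries, 344, 354 and 353 CPM at 5 h, and 479, 502 and 464 CPM at 12 h. No library of one group overlapped those of another. TOX averaged 350 ± 5.51 CPM at 5 h and 260.1 ± 7.66 CPM in resting cells (SD, n = 3 each), a log2 fold change of 0.43 ± 0.08 (SE) with an adjusted p of 0.000103 by edgeR. At 12 h it averaged 482 ± 19.0 CPM (SD, n = 3), 1.85-fold the resting level in the fit, with a log2 fold change of 0.89 ± 0.08 (SE) and an adjusted p of 3.4e-09 (edgeR). The step between the times was itself called, with a log2 fold change at 12 h versus 5 h of 0.46 ± 0.08 (SE) and an adjusted p of 6.38e-05 (edgeR). TOX replicates were also the tightest of the 6 genes in resting cells and at 5 h, though not at 12 h: the CV over libraries was 2.95% in resting cells, 1.57% at 5 h and 3.94% at 12 h, where counting error alone gives 2.06%, 1.47% and 1.71%.

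RUNX3 had the largest rise of the 6 and few footprints at rest. Its raw counts were 52, 34 and 43 in resting libraries, 223, 207 and 320 at 5 h, and 110, 53 and 112 at 12 h. These correspond to 6.06, 3.74 and 4.455 CPM in resting cells, 22.5, 15.5 and 17.4 CPM at 5 h, and 9.42, 11.6 and 15.1 CPM at 12 h. All activated libraries lay above all resting ones, and all 12 h libraries lay below all 5 h ones. The lowest resting count, 34, has an exact 95% Poisson interval from 23.5 to 47.5, which covers counting error only. RUNX3 averaged 18.5 ± 3.61 CPM at 5 h and 4.75 ± 1.19 CPM in resting cells (SD, n = 3 each). That was 3.88-fold in the fit, with a log2 fold change of 1.96 ± 0.25 (SE) and an adjusted p of 1.45e-06 by edgeR, and 573 tested IDs rose by more.

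At 12 h RUNX3 averaged 12.0 ± 2.85 CPM (SD, n = 3), 2.52-fold the resting level in the fit, with a log2 fold change of 1.33 ± 0.26 (SE) and an adjusted p of 0.000254 (edgeR). The 12 h versus 5 h difference was -0.62 ± 0.23 on the log2 scale (SE), with an adjusted p of 0.0565 by edgeR, just outside the threshold. By edgeR it was inside the threshold with resting replicate 1 (0.04998), resting replicate 2 (0.0430) or 12 h replicate 3 (0.0323) left out. The same held when only the 6 libraries of the comparison were fitted (0.0444, edgeR). All other refits kept it outside, some of them far outside. Dropping 12 h replicate 1 raised the edgeR value to 0.251, and dropping 5 h replicate 1 raised it to 0.227. It rose to 0.127 when 12 h replicate 2 was dropped, and to 0.119 when 5 h replicate 3 was. The CV of RUNX3 over libraries was 25% in resting cells, 19.5% at 5 h and 23.7% at 12 h, against counting errors of 15.4%, 6.41% and 10.9%.

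IKZF1, the Ikaros gene, changed direction. It stood at 206, 172 and 201 CPM in resting libraries, 269, 239 and 241 CPM at 5 h, and 154, 161 and 154 CPM at 12 h. Under TMM scaling the groups did not overlap, with 5 h above resting cells and 12 h below them. Relative to unscaled library totals, 5 h still lay above resting cells, but the 12 h libraries fell within the resting range. Resting replicate 2 (1565 of 10171929 counts) was then below all 12 h libraries, of which 12 h replicate 1 (1799 of 11153533) was the lowest. The mean was 249.5 ± 16.6 CPM at 5 h and 193 ± 18.2 CPM in resting cells (SD, n = 3 each), a log2 fold change of 0.37 ± 0.09 (SE) with an adjusted p of 0.00272 by edgeR. At 12 h it was 156 ± 4.31 CPM (SD, n = 3), 62.7% of the 5 h level in the fit, with a log2 fold change against 5 h of -0.67 ± 0.09 (SE) and an adjusted p of 6.6e-06 by edgeR. Against resting cells the 12 h log2 fold change was -0.30 ± 0.09 (SE), with an adjusted p of 0.0137 by edgeR. The fall below rest is the less secure part of this course: its adjusted p by edgeR was 0.0617 without resting replicate 1 and 0.0530 with the stricter filter of 50 or more counts in 3 libraries.

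**Figure D3:**
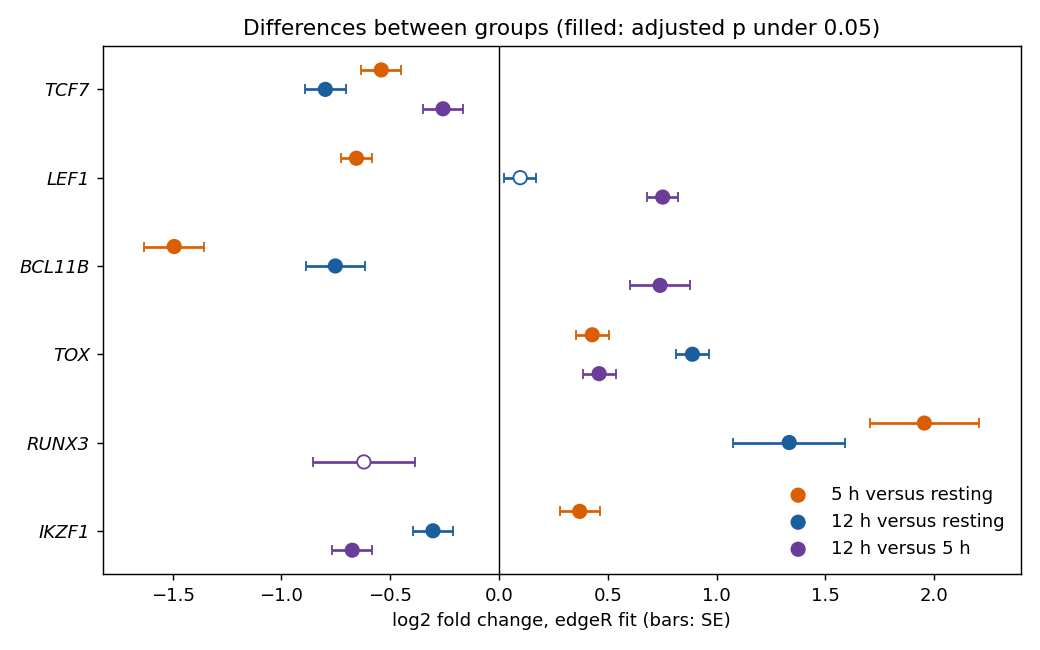
Log2 fold changes of the 6 factors (horizontal axis) in the 3 comparisons, with the SE of the edgeR fit as bars; filled points have an adjusted p under 0.05. LEF1 at 12 h versus resting and RUNX3 at 12 h versus 5 h are the open points, and IKZF1 lies on opposite sides of 0 at 5 h and 12 h versus resting.

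Each factor thus had its own set of 3 calls in the main fit. Some of these calls lay near the threshold. At 12 h versus 5 h the adjusted p by edgeR was 0.0454 for TCF7 and 0.0565 for RUNX3. At 12 h versus resting the calls of LEF1 and IKZF1 changed with the stricter filter. A missing call does not show that levels were equal. Both activated groups are set against the same resting libraries, so the courses are given as counts only. The IKZF1 course, higher at 5 h, lower at 12 h and lower at 12 h than at 5 h, was that of 76 tested IDs (0.546%). The TOX course, higher in all 3 comparisons, was that of 136 IDs (0.977%), and the BCL11B course, lower at both times with a partial return, that of 159 IDs (1.14%). The TCF7 course, lower in all 3, was that of 315 IDs (2.26%). The LEF1 course, lower at 5 h only and higher at 12 h than at 5 h, was that of 577 IDs (4.15%), and the RUNX3 course, higher at both times with no call between them, that of 908 IDs (6.52%).

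Set against all tested IDs, BCL11B and RUNX3 stood furthest out at 5 h versus resting, with absolute log2 fold changes larger than those of 91.7% and 95.5% of IDs; TCF7, LEF1, TOX and IKZF1 lay between 45.8% and 68.1%. At 12 h versus resting RUNX3 (90.3%) was followed by TOX (78.7%), TCF7 (74.8%) and BCL11B (72.4%). At 12 h versus 5 h LEF1 (82.4%) and BCL11B (81.9%) came first. At 5 h versus resting the median log2 fold change was -0.09 over the 6 and 0.07 over all IDs, and the median absolute value was 0.60 over the 6 and 0.42 over all IDs. At 12 h versus resting the medians were -0.10 over the 6 and 0.04 over all IDs, and 0.78 and 0.43 in absolute value. At 12 h versus 5 h they were 0.10 over the 6 and -0.05 over all IDs, and 0.65 and 0.33 in absolute value. Changes that were called and exceeded 2-fold numbered 2 of the 6 at 5 h versus resting, BCL11B and RUNX3 (9.10% of all IDs), 1 at 12 h versus resting, RUNX3 (9.09%), and 0 at 12 h versus 5 h (5.06%). Groups did not overlap for 6 of the 6 at 5 h versus resting (45.7% of all IDs), 5 at 12 h versus resting (45.8%) and 5 at 12 h versus 5 h (39.1%). With opposite directions among the 6, their median says little about any one gene. Summed over the 6, footprints averaged 1515 ± 42.0 CPM at 5 h and 1879 ± 41.4 CPM in resting cells (SD, n = 3 each), with no overlap, and 1905 ± 80.0 CPM at 12 h, which overlapped rest. The sum joins opposite directions: LEF1, TCF7 and BCL11B fell at 5 h, while TOX, RUNX3 and IKZF1 rose. It also weights each gene by its CPM, which depends on coding length. LEF1 had the largest difference in CPM of the 6 (558 CPM at 5 h and 879 CPM in resting cells on average). Its log2 fold change at 5 h versus resting (-0.66) was nonetheless smaller in size than that of BCL11B (-1.49). The overlap at 12 h holds under TMM scaling: as a share of the unscaled library total, the 6 took 0.196% to 0.21% at 12 h and 0.166% to 0.179% in resting cells, which do not overlap.

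**Figure D4:**
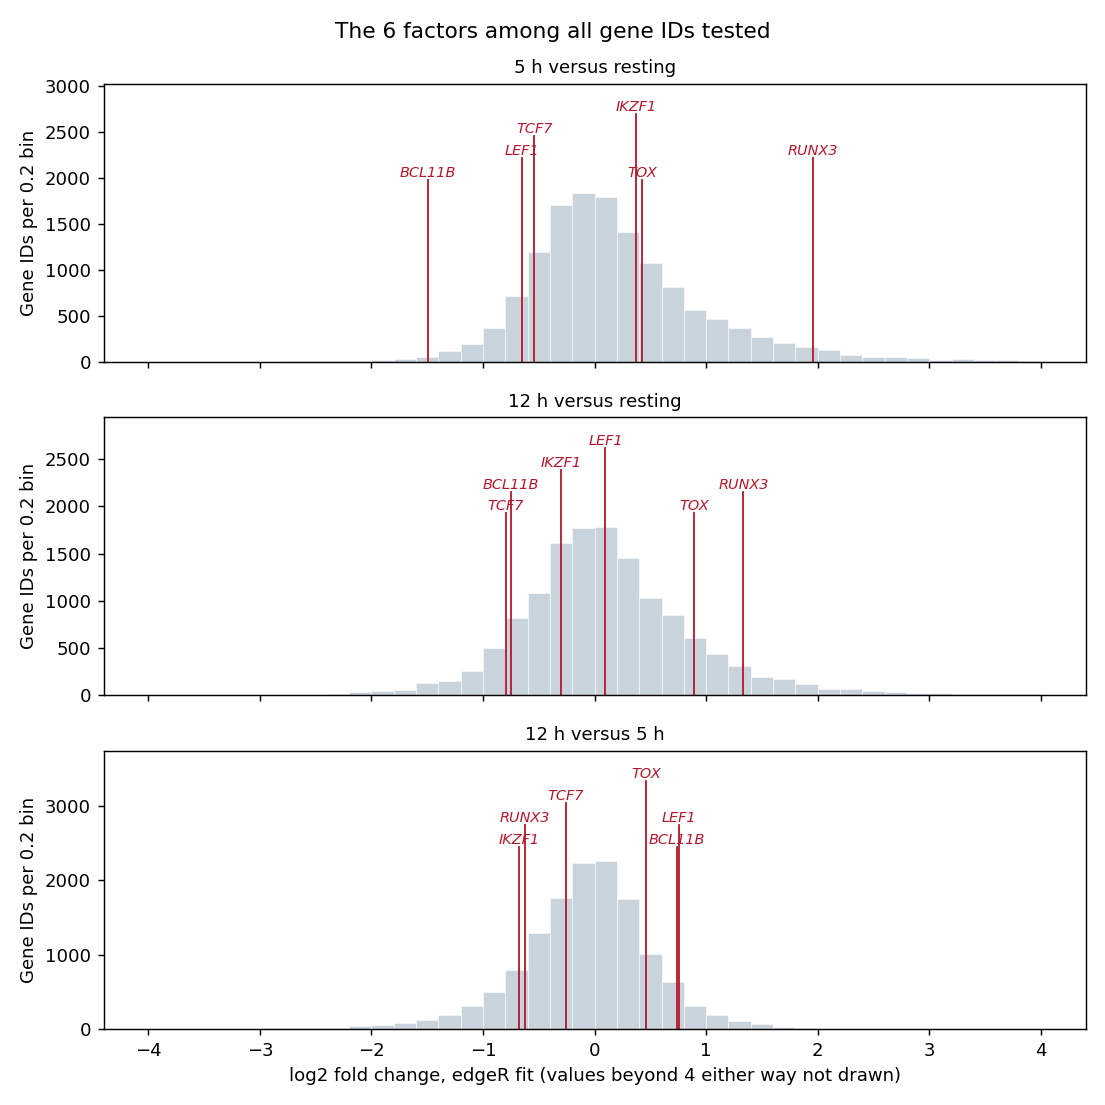
Number of tested gene IDs per 0.2 of log2 fold change (vertical axis) against the log2 fold change (horizontal axis) in the 3 comparisons, with the 6 factors as labelled lines. At 5 h versus resting BCL11B (-1.49) lies in the lower tail and RUNX3 (1.96) in the upper tail; TCF7, LEF1, TOX and IKZF1 lie within 1 log2 unit of 0 in all 3.

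The factors were not each other's closest match across libraries. With only 5 other factors among 8827 IDs, that was likely for any set of genes, so it does not show whether they moved together. Likeness was the Pearson correlation of log2(CPM + 0.5) over the 9 libraries, among 8827 other IDs averaging at least 10 CPM or belonging to the 6. These libraries fall into 3 groups, so the value mostly follows the group means, and it is given as a description. For LEF1, the closest of the other 5 was BCL11B, at place 1041, and for BCL11B it was LEF1, at place 1148. For TCF7 it was BCL11B (place 1818), for TOX RUNX3 (1734), for RUNX3 TOX (1661) and for IKZF1 RUNX3 (2181). The correlation of TCF7 with LEF1 was 0.065, that of TCF7 with TOX -0.927 and that of LEF1 with IKZF1 -0.92. Among the genes that fell at 5 h, the closest IDs were ENSG00000130731.16 for TCF7 (0.988) and ENSG00000140262.18 for LEF1 (0.992). ENSG00000130731.16 averaged 43.0 ± 6.09 CPM at 5 h and 62.9 ± 6.41 CPM in resting cells, and ENSG00000140262.18 averaged 213 ± 12.9 CPM at 5 h and 427 ± 33.6 CPM in resting cells (SD, n = 3 each). Among those that rose, they were ENSG00000027075.15 for TOX (0.993) and ENSG00000184887.13 for RUNX3 (0.982). ENSG00000027075.15 averaged 172 ± 15.3 CPM at 5 h and 123.5 ± 4.24 CPM in resting cells, and ENSG00000184887.13 averaged 28.9 ± 2.14 CPM at 5 h and 17.0 ± 2.499 CPM in resting cells (SD, n = 3 each). Each of these IDs was picked for the highest correlation in these same libraries, so a course like that of its factor follows from the choice. The tables used here pair no gene symbol with these IDs, so they are given by ID alone. BCL11B and IKZF1 also had closest IDs, at 0.99 and 0.982, which are not named here.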

How the data were processed

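The 9 libraries, 3 per group, are ribosome profiling libraries by their labels. Those labels do not say how footprints were isolated. The deposited count table holds whole-number footprint counts per versioned Ensembl ID, with no normalization. A second deposited table holds log2 values for 11572 IDs; dividing the counts by 1 size factor per library, adding 1 and taking log2 gave these values back to within 5.03e-09. Per the submitters' processing notes, tools included Bowtie, RSEM, DESeq2, bedtools and cutadapt 3.2, and the build was GRCh38.p13, with no roles given. How fragments matching several genes were treated, which could move counts between relatives such as TCF7 and LEF1, and the annotation release were not given in the sources used here.

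Counts of all 9 libraries entered 1 fit with edgeR 4.0.16 in R 4.3.3 (TMM, filterByExpr, quasi-likelihood test, Benjamini-Hochberg adjustment). The common biological coefficient of variation was 15.6%. Alternatives used DESeq2 1.42.0, limma 3.58.1, other filters and scalings, and left-out libraries. The fit was tested on simulated data with 50 IDs changed per fold size: the 5 h versus resting simulation (13219 IDs) found 50% of 1.5-fold, 78% of 2-fold and 94% of 4-fold changes, with 3.05% false calls. The same shares were 36%, 80% and 90%, with 4.46% false, in the 12 h versus resting simulation (13262 IDs), and 54%, 78% and 96%, with 6.29% false, in that of 12 h versus 5 h (13281 IDs). The changed IDs were drawn only from IDs above a minimum expected count. They were also a far smaller part of all IDs than the 34.5%, 35.1% and 25.1% called in the data. The shares found and the false calls therefore describe the simulations and do not carry over to these comparisons. The 6 genes and the lists were chosen with earlier results of these data known. The named genes were the 6, plus the closest IDs by correlation among those averaging at least 10 CPM. The gene tables used here pair no symbol with Ensembl IDs (0 matched), so the lists of family relatives, partners, targets and cell type markers, the check of the cell type against its markers, the ratios to relatives outside the 6 and levels per coding length were not analysed here. Promoter windows were matched by symbol, and those of 5 of the 6 genes were searched. The search left out the chromosome of TOX, so no TOX window was used.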

Additional observations from a re-analysis of the deposited data

Results flagged for a closer look

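For 5 of the 6 factors the change against resting cells differed between the times. This was tested directly as 12 h against 5 h with edgeR's quasi-likelihood test, by which 25.1% of all tested IDs were called. The difference for RUNX3, -0.62, had an adjusted p of 0.0565 by edgeR and was not called, though it was larger in size than those of TCF7 and TOX. The change at 12 h minus that at 5 h, on the log2 scale, was 0.75 for LEF1, 0.74 for BCL11B and 0.46 for TOX. It was -0.67 for IKZF1, whose change against resting cells was 0.37 at 5 h and -0.30 at 12 h. It was -0.26 for TCF7, with an adjusted p of 0.0454 that most alternatives moved past the threshold. The adjusted p of the other 4 ran from 3.86e-08 for LEF1 to 0.000294 for BCL11B.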

How the results depend on the processing

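Each of the 18 log2 fold changes (6 genes, 3 comparisons) was refitted under 18 alternatives, and none of the 324 refits changed direction. Of these, 294 kept their side of the threshold, 25 lost the call and 5 gained one. In the test against a 1.5-fold change (glmTreat), which asks for more than any change, 11 calls were lost: at 5 h versus resting TCF7 (-0.54), LEF1 (-0.66), TOX (0.43) and IKZF1 (0.37); at 12 h versus resting BCL11B (-0.75) and IKZF1 (-0.30); and at 12 h versus 5 h TCF7 (-0.26), LEF1 (0.75), BCL11B (0.74), TOX (0.46) and IKZF1 (-0.67). It left 1 gene higher and 1 lower at 5 h versus resting, and 2 higher and 1 lower at 12 h versus resting. At 12 h versus 5 h it left 0 higher and 0 lower. Over all IDs it called 653 higher and 445 lower, 527 and 603, and 217 and 400, in the same order of comparisons.

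The TCF7 call at 12 h versus 5 h was also lost with DESeq2 size factors (-0.23), upper quartile scaling (-0.25), the DESeq2 Wald test (-0.23), at least 50 counts in 3 libraries (-0.22), only the 6 libraries (-0.23), the replicate block (-0.25) and limma on the authors' log2 table (-0.22), which left 1 of the 6 called lower in each, or, with only the 6 libraries, 2, since RUNX3 (-0.59) was then called. With at least 50 counts in 3 libraries, LEF1 at 12 h versus resting was called (0.18) and IKZF1 was not (-0.22). With 1 library left out, TCF7 at 12 h versus 5 h ranged from -0.35 to -0.19, RUNX3 from -0.83 to -0.46, IKZF1 at 12 h versus resting from -0.39 to -0.27, and the number of the 6 called lower at 12 h versus 5 h from 1 to 3.

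Replicate numbers were not treated as pairs, since the deviations of same-numbered libraries correlated at -0.06 to 0.12 across groups; the replicate block moved the calls over all IDs at 5 h from 2230 to 2159 higher and from 2567 to 2485 lower, and ended no other call of the 6. The summed footprints at 12 h minus resting, a small difference, ranged from -18.6 to 57.3 CPM with 1 library left out and turned negative without 12 h replicate 2, the shallowest library. The pseudocount did not move the LEF1 to TCF7 ratio beyond its SD. Depth limits RUNX3 most, with 34 to 52 counts in resting libraries. Of the 15 gene pairs, only LEF1 over TCF7 was planned; the others were added after the data were seen.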
